A study of Mus musculus with 8 samples.

Results

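The genes described here lie outside chromosome 18 and differed between Tpl2-deficient and wild-type macrophages at rest. They are Enpp4, Pik3ap1, Pdpn, Bdh1, Galnt9, Mocs1, Pot1b, Adgre4, Npy and Zfp30. These are 10 of 18193 genes measured. They were picked from the genotype comparison of unstimulated cells, so their differences at rest describe that choice and are given with no test. Chromosome 18 is set apart because it carries Map3k8, the gene of the kinase Tpl2. The genes were found as the probe sets annotated to exactly 1 of these symbols, 16 in all, with 2 probe sets for 6 genes and 1 for the other 4. Where a gene had 2, the probe set with the higher mean over all arrays gives its value and the other serves as a check.

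RNA came from macrophages grown from mouse bone marrow in macrophage colony-stimulating factor and was measured on 8 Affymetrix arrays. The groups, each with 2 arrays, were Tpl2 deficient and unstimulated, Tpl2 wild type and unstimulated, Tpl2 deficient with LPS, and Tpl2 wild type with LPS. LPS, a bacterial ligand of toll-like receptor 4, came from Escherichia coli (0111:B4) and was used at 1 μg/mL. The labels give neither the time in LPS for these arrays, nor the strain, sex or age of the mice, nor how Map3k8 was disrupted. Arrays of 1 group are named as biological replicates, with no word on whether each came from its own animal, so a p-value here reflects only the spread among these arrays.

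The genes belong to different families and pathways. Tpl2 is a kinase that links toll-like receptors to MEK and ERK. Enpp4 encodes a nucleotide-hydrolysing enzyme of the cell surface. Pik3ap1 encodes BCAP, an adaptor that binds PI3 kinase and restrains toll-like receptor signalling in macrophages. Pdpn encodes podoplanin, a mucin-like membrane protein recognised by the receptor CLEC-2, and Adgre4 an adhesion G protein-coupled receptor of the F4/80 family. Bdh1, Galnt9 and Mocs1 encode enzymes, for ketone body oxidation, the start of mucin-type O-glycosylation and the start of molybdenum cofactor synthesis. Pot1b protects telomere ends in rodents, Npy encodes the secreted neuropeptide Y, and Zfp30 a KRAB zinc finger protein.

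Values are log2 RMA intensities, in which a difference of 1 is 2-fold, and levels of different genes are not compared because each probe set has its own brightness. Differences are Tpl2-deficient minus wild type, ± the standard error of a limma fit to all 8 arrays, and a gene is said to pass where its p, adjusted by Benjamini and Hochberg's method over the whole set of genes, was under 0.05. Arrays have no read depth, so their number limits the precision, and the files hold no detection calls. The median over all probe sets was 6.48 to 6.53 on the 8 arrays. A fold against a group whose mean is under it is written as "at least", and no expression was shown where both groups lie under it. Map3k8 itself was 9.83 and 10.09 with LPS and 8.32 and 8.23 at rest in Tpl2-deficient cells, against 11.01 and 10.91 with LPS and 9.27 and 9.28 at rest in wild-type cells. The labelled genotypes are therefore separated by the targeted gene, for which a single probe set exists. A sign of RNA quality moved with them: the log2 ratio of 3' to 5' Actb probe sets was 0.87 and 0.90 in Tpl2-deficient against 0.81 and 0.67 in wild-type cells at rest, and 0.61 and 0.68 against 0.46 and 0.55 with LPS. The same ratio for Gapdh overlapped at rest, at 0.07 and 0.06 in Tpl2-deficient against 0.09 and -0.03 in wild-type cells. With LPS the Gapdh ratio was 0.05 and 0.10 against -0.09 and -0.07. The part of these ratios in the genotype differences was not tested. Of 15 macrophage markers measured 14 lay above the mean array median. With LPS 2 of the 15 passed as higher and 4 as lower in Tpl2-deficient cells, where 8.01% and 5.73% of all genes did. The mean level of the 15 with LPS was 11.4 and 11.5 in Tpl2-deficient against 11.8 and 11.8 in wild-type cells. The list had no call at rest. Arrays of a group correlated at r = 0.994 in LPS-treated Tpl2-deficient cells and 0.997 in the other groups, and the median SD of a probe set was 0.125 in LPS-treated Tpl2-deficient cells and 0.0713 to 0.0740 in the others, a spread that the fit takes as equal.

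At rest, Tpl2-deficient cells had more signal for 4 of the 10 genes and less for 6. Over all genes 91 (0.500%) passed at rest, 0.154% higher and 0.346% lower, and the 10 genes are among them because of how they were picked. The arrays of the genotypes did not overlap at rest for any of the 10, nor for 53.1% of all genes. The split over all genes depended on the scaling, with 28 higher and 63 lower as deposited, 46 higher and 35 lower when centred on spike-in probe sets, and 35 higher and 44 lower after repeated quantile normalization. The 10 genes kept 4 higher and 6 lower under each. Without wild-type replicate 1 or 2 the count over all genes was 36 or 23, and without Tpl2-deficient replicate 1 or 2 it was 40 or 29. The median size of the difference was 1.29 for the 10 genes and 0.12 over all genes. Adgre4 had the 85th lowest p of the 91, and the other 9 genes ranked between 1 and 35. With LPS, whose arrays do not enter the resting difference but share the fit's estimate of spread with it, 6 of the 10 passed, all in the direction seen at rest, where 7.00% of all genes passed in the direction of their own resting difference and 13.7% passed in either. The count over all genes was 2500, and 1387 or 1356 without LPS-treated wild-type replicate 1 or 2. By the probe sets used, Enpp4, Pik3ap1 and Adgre4 were the 3 higher genes, where 8.01% of all genes were higher, and Pdpn, Npy and Mocs1 the 3 lower ones, where 5.73% were lower. In a fit of the 4 LPS arrays alone, where 9.77% of all genes passed, the same 6 genes passed. The count was 4 with each gene taken as the mean of its probe sets and 5 without _x_at and _s_at probe sets, since the second probe sets of Pik3ap1 and Mocs1 disagreed with those used, and 4 with a 2-fold minimum. Bdh1, Galnt9, Pot1b and Zfp30 did not pass with LPS.

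**Figure D1:**
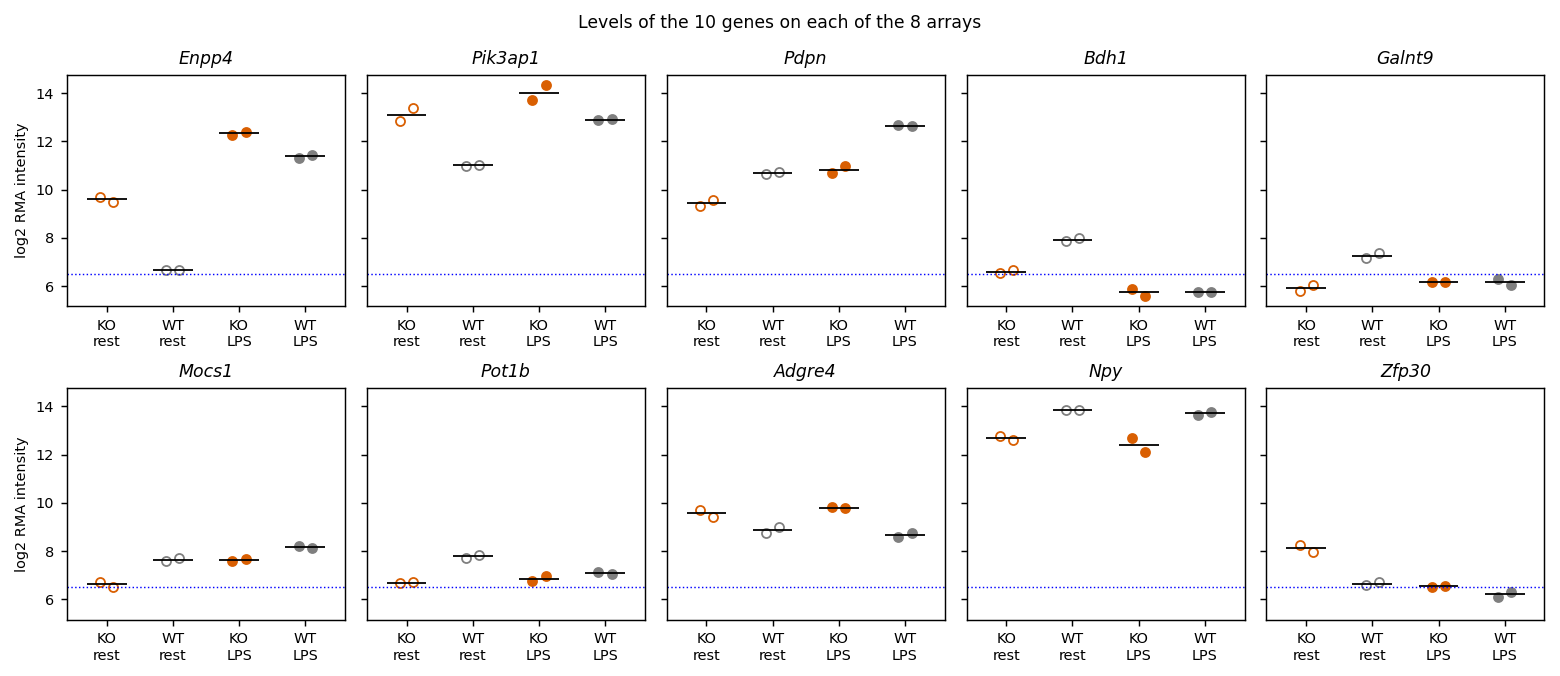
Log2 RMA intensity of each gene on each array, for Tpl2-deficient (KO, orange) and wild-type (WT, grey) macrophages at rest (open) and with LPS (filled). Short lines are means of 2 arrays and the dotted line is the mean array median. At rest the genotypes do not overlap for any of the 10 genes, and with LPS they overlap for Bdh1 and Galnt9.

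Enpp4 was the gene with the lowest p at rest and the strongest LPS response of the 10. Its level at rest was 9.71 and 9.51 in Tpl2-deficient cells, against 6.68 and 6.66 in wild-type cells, a difference of 2.94 ± 0.11, or 7.65-fold. LPS-treated levels were 12.26 and 12.41 in Tpl2-deficient cells, against 11.31 and 11.44 in wild-type cells. The arrays of the genotypes did not overlap in either state, and the difference with LPS was 0.96 ± 0.11, or 1.94-fold (limma adjusted p = 0.000153, and 0.000562 in the fit of LPS arrays alone). The genotype difference with LPS was 32.6% of that at rest on the log2 scale. LPS raised Enpp4 6.61-fold in Tpl2-deficient and 26.1-fold in wild-type cells, so wild-type cells with LPS lay above Tpl2-deficient cells at rest. Its other probe set gave the same order, with a difference of 1.85 ± 0.15 at rest and 0.97 ± 0.15 with LPS. That probe set lay under the array medians in wild-type cells at rest, at 6.01 and 6.23. The folds and the share above are those of the probe set used.

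Pik3ap1 was higher by 2.11 ± 0.20 at rest, at 12.84 and 13.39 in Tpl2-deficient cells against 11.00 and 11.02 in wild-type cells. With LPS its level was 13.71 and 14.34 in Tpl2-deficient cells, against 12.88 and 12.92 in wild-type cells. The Tpl2-deficient arrays were the highest in each state and also the further apart, and the difference with LPS was 1.12 ± 0.20, or 2.18-fold (limma adjusted p = 0.00324, and 0.00174 in the fit of LPS arrays alone). The direction held for this probe set only. The second Pik3ap1 probe set was lower in Tpl2-deficient cells, at 7.91 and 7.35 against 8.43 and 8.51 in wild-type cells at rest. With LPS the second probe set was at 8.93 and 8.62 in Tpl2-deficient cells, against 10.36 and 10.40 in wild-type cells. Its difference was -0.84 ± 0.17 at rest and -1.61 ± 0.17 with LPS (limma over all probe sets, adjusted p = 6.5e-05 for LPS), so the probe sets gave opposite genotype differences and no direction for the gene as a whole can be given. Both probe sets were raised by LPS in both genotypes, by 0.91 and 1.14 in Tpl2-deficient cells and by 1.89 and 1.91 in wild-type cells, the probe set used first. The sequences that the probe sets target are not given in the sources used here, and a part of the probe target in the disagreement was not tested.

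Pdpn was lower by 1.26 ± 0.13 at rest, at 9.31 and 9.56 in Tpl2-deficient cells against 10.65 and 10.74 in wild-type cells. With LPS it was 10.69 and 10.98 in Tpl2-deficient cells, against 12.67 and 12.63 in wild-type cells. The groups did not overlap, and the difference of -1.81 ± 0.13, or 3.51-fold lower, had the smallest p of the 10 genes with LPS (limma adjusted p = 3.59e-06, and 6.9e-06 in the fit of LPS arrays alone). LPS raised Pdpn 2.65-fold in Tpl2-deficient and 3.87-fold in wild-type cells, and Tpl2-deficient cells with LPS were near the level of wild-type cells at rest. Pdpn is also expressed by stromal cells. The mean level of the 9 other stromal markers measured was 6.80 and 6.16 in Tpl2-deficient and 6.44 and 6.41 in wild-type cells at rest, and 6.94 and 7.08 in Tpl2-deficient and 6.86 and 6.90 in wild-type cells with LPS. Pdpn itself was lower in both Tpl2-deficient arrays of each state, while that mean was not, and the part of stromal cells in its level was not tested. Of 52 markers of other cell types besides Pdpn, 0 passed at rest in the limma fit, where 0.500% of all genes did. The unadjusted limma p at rest was under 0.05 for 10 of the 52, against 2445 of 18193 genes. With LPS 3 of the 52 passed, against 13.7% of all genes.

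Npy differed by about the same amount in both states and Adgre4 by more with LPS, and neither passed for LPS in either genotype. Npy passed for LPS in Tpl2-deficient cells, with a change of -0.58, when LPS-treated Tpl2-deficient replicate 1 was left out. Npy was at 12.79 and 12.59 in Tpl2-deficient cells against 13.86 and 13.87 in wild-type cells at rest. After LPS, Npy was 12.70 and 12.11 in Tpl2-deficient cells, against 13.66 and 13.77 in wild-type cells. All 4 Tpl2-deficient arrays lay below all 4 wild-type arrays, with differences of -1.18 ± 0.16 at rest and -1.31 ± 0.16 with LPS (limma adjusted p = 0.000261, and 0.000487 in the fit of LPS arrays alone). Adgre4 was at 9.73 and 9.42 in Tpl2-deficient cells against 8.77 and 8.99 in wild-type cells at rest. After LPS, Adgre4 was 9.82 and 9.80 in Tpl2-deficient cells, against 8.61 and 8.76 in wild-type cells. All 4 Tpl2-deficient arrays lay above all 4 wild-type arrays, with a difference of 0.69 ± 0.13 at rest and 1.12 ± 0.13 with LPS (limma adjusted p = 0.000137, and 0.00015 in the fit of LPS arrays alone). The second Adgre4 probe set differed by 0.56 ± 0.16 at rest and by 0.71 ± 0.16 with LPS, in the same direction. In the limma fit over all probe sets, rather than genes, neither Adgre4 probe set passed at rest and both passed with LPS. Adgre1, the F4/80 gene of the same receptor family, differed by 0.11 ± 0.11 at rest and -0.20 ± 0.11 with LPS and did not pass.

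Mocs1 was lower by 1.03 ± 0.11 at rest, at 6.71 and 6.53 in Tpl2-deficient cells against 7.58 and 7.72 in wild-type cells. With LPS it was 7.59 and 7.68 in Tpl2-deficient cells, against 8.21 and 8.15 in wild-type cells. The groups did not overlap, and the difference with LPS was -0.55 ± 0.11, or 1.46-fold lower (limma adjusted p = 0.00563, and 0.0178 in the fit of LPS arrays alone). This call was lost without LPS-treated wild-type replicate 1 (limma adjusted p = 0.0567). The probe set used is of the _s_at kind, which may match several transcripts. The other Mocs1 probe set was at 6.26 and 5.92 in Tpl2-deficient against 6.10 and 6.03 in wild-type cells at rest, where the groups overlapped and both lay under the array medians. With LPS the other probe set was at 7.13 and 6.86 in Tpl2-deficient against 6.60 and 6.72 in wild-type cells, a difference of 0.34 ± 0.14 that did not pass. The lower Mocs1 level thus rests on 1 of its 2 probe sets.

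**Figure D2:**
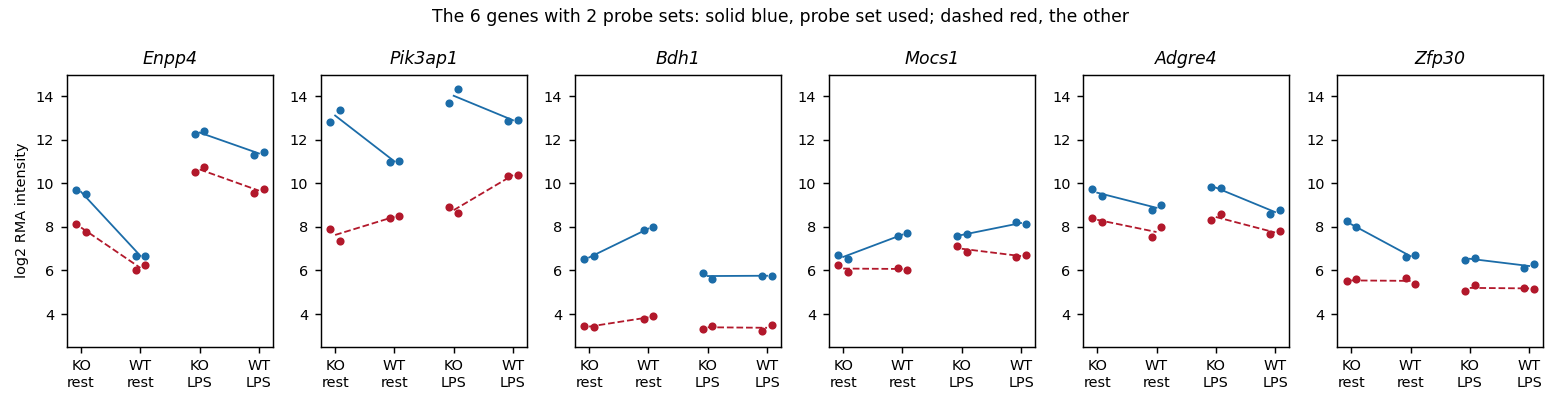
Log2 RMA intensity of the 6 genes with 2 probe sets, by group (KO, Tpl2 deficient; WT, wild type; at rest and with LPS); points are arrays, lines join group means, solid blue for the probe set used and dashed red for the other. The lines slope the same way for Enpp4 and Adgre4 and in opposite ways for Pik3ap1, whose probe sets differed by 2.11 and -0.84 at rest.

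Among the 4 genes that did not pass with LPS, Bdh1 and Galnt9 lay under the array medians in LPS-treated cells of both genotypes and Zfp30 in those of wild type, while Pot1b lay above them. Bdh1 was at 6.53 and 6.67 in Tpl2-deficient cells against 7.86 and 7.99 in wild-type cells at rest, a difference of -1.32 ± 0.12. Under LPS, Bdh1 was 5.89 and 5.6 in Tpl2-deficient cells, against 5.76 and 5.76 in wild-type cells, so both groups lay under the medians, overlapped and differed by -0.01 ± 0.12. Galnt9 was at 5.81 and 6.06 in Tpl2-deficient cells against 7.18 and 7.36 in wild-type cells at rest, at least 2.52-fold lower. Under LPS, Galnt9 was 6.16 and 6.18 in Tpl2-deficient cells, against 6.28 and 6.06 in wild-type cells, again under the medians and overlapping, with a difference of 0.00 ± 0.12. For these genes the arrays could not show whether a difference remained with LPS.

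Pot1b was at 6.68 and 6.71 in Tpl2-deficient cells against 7.73 and 7.86 in wild-type cells at rest, a difference of -1.10 ± 0.11. With LPS it was 6.78 and 6.96 in Tpl2-deficient cells, against 7.14 and 7.05 in wild-type cells. The arrays did not overlap with LPS, but the difference of -0.22 ± 0.11 did not pass (limma adjusted p = 0.228). Zfp30 was at 8.26 and 7.99 in Tpl2-deficient cells against 6.61 and 6.71 in wild-type cells at rest, a difference of 1.47 ± 0.12. LPS brought Zfp30 levels of 6.50 and 6.58 in Tpl2-deficient cells, against 6.09 and 6.32 in wild-type cells, a difference of 0.33 ± 0.12 that did not pass (limma adjusted p = 0.113). Of the 10 genes, 8 had LPS arrays that did not overlap between genotypes, where 46.6% of all genes had none. The second probe set of Zfp30 differed by 0.02 ± 0.13 and that of Bdh1 by -0.42 ± 0.12 at rest, and both of these probe sets lay under the array medians in every group.

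**Figure D3:**
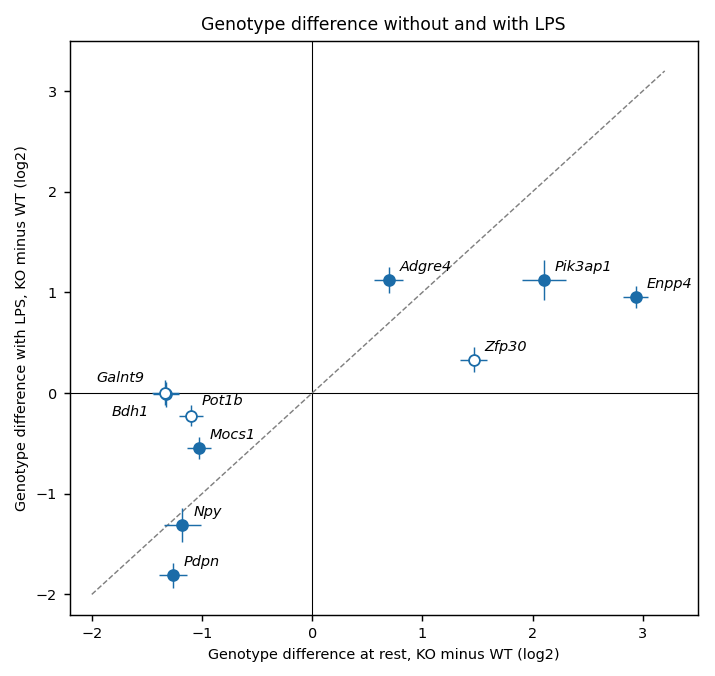
Genotype difference (Tpl2-deficient minus wild type, log2) at rest against that with LPS for the 10 genes, with standard errors; filled points passed with LPS and the dashed line marks equal differences. Pdpn, Npy and Adgre4 lie beyond the dashed line, at -1.81, -1.31 and 1.12 with LPS, and Bdh1 and Galnt9 lie at 0.

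The LPS response was read in each genotype. It shares the resting arrays with the choice of genes, so the counts are a description. LPS raised 4 of the 10 genes in Tpl2-deficient cells and lowered 2, where 16.0% and 25.8% of all genes passed in these directions and 41.8% in either. It raised 4 and lowered 4 in wild-type cells, where 21.3% and 30.9% of all genes passed and 52.2% in either. The arrays at rest and with LPS did not overlap for 66.7% of all genes in Tpl2-deficient and 80.3% in wild-type cells. Spike-in probe sets were higher with LPS by 0.205 in Tpl2-deficient and 0.137 in wild-type cells, and centring on them gave 1795 genes raised and 6380 lowered in Tpl2-deficient cells, against 2903 and 4693 as deposited, and 2091 raised and 6252 lowered in wild-type cells, against 3872 and 5627 as deposited. So centred, LPS raised 4 of the 10 genes and lowered 3 in Tpl2-deficient cells, and raised 4 and lowered 4 in wild-type cells. By the probe sets used, the genotype difference of the LPS response passed for 5 of the 10 genes, against 8.59% of all genes. Of the 5, 3 were positive (Bdh1, Galnt9 and Pot1b, against 5.72%) and 2 negative (Enpp4 and Zfp30, against 2.87%). Enpp4, Pik3ap1, Pdpn and Mocs1 were the genes raised, in both genotypes, and Mocs1 rose by 1.01 ± 0.11 in Tpl2-deficient and by 0.53 ± 0.11 in wild-type cells. Bdh1 and Zfp30 were lowered in both. Bdh1 fell by 0.86 in Tpl2-deficient cells, at least 1.81-fold, and fell by 2.17 in wild-type cells, at least 4.49-fold. Zfp30 fell by 1.59 in Tpl2-deficient and by 0.45 in wild-type cells, and the wild-type call was lost without unstimulated replicate 2 or LPS-treated replicate 1 of that genotype. Galnt9 changed by 0.24 ± 0.12 in Tpl2-deficient cells and did not pass, and fell by 1.10 in wild-type cells. Pot1b changed by 0.17 ± 0.11 in Tpl2-deficient cells and did not pass, and fell by 0.70 in wild-type cells.

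**Figure D4:**
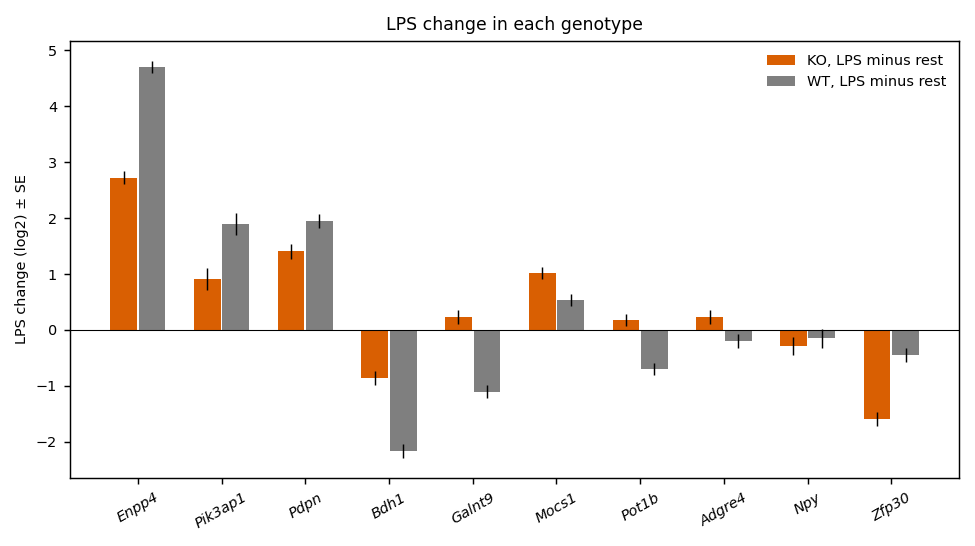
LPS change (LPS minus rest, log2) of each gene in Tpl2-deficient (KO, orange) and wild-type (WT, grey) macrophages; bars are differences of 2-array means and lines are standard errors from the limma fit. Enpp4 has the largest bars, 2.72 and 4.70, and Npy and Adgre4 the bars nearest to 0 in wild-type cells.

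The promoters of the 4 genes that LPS raised in both genotypes are shown, since these genes moved together. They are RefSeq sequences of build GRCm38.p6, from 250 bases before to 50 after the gene's start, printed 5′ to 3′ in the direction of the gene. Enpp4 is at chr17:44105760-44106059 on the minus strand, Pik3ap1 at chr19:41385053-41385352 on the minus strand, Pdpn at chr4:143299515-143299814 on the minus strand and Mocs1 at chr17:49428114-49428413 on the plus strand. Capitals mark matches to 6 motifs searched on both strands, namely AP-1 (TGANTCA), ETS (GGAAGT), the NF-kB consensus, the TATA box (TATAAA), the CCAAT box (CCAAT) and the GC box (GGGCGG).
Enpp4: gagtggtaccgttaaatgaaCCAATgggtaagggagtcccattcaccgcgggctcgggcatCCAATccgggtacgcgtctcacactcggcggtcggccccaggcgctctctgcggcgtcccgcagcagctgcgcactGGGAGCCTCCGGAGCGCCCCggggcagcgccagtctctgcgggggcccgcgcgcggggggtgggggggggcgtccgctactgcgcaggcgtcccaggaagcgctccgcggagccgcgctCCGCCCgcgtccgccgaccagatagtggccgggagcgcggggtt
Pik3ap1: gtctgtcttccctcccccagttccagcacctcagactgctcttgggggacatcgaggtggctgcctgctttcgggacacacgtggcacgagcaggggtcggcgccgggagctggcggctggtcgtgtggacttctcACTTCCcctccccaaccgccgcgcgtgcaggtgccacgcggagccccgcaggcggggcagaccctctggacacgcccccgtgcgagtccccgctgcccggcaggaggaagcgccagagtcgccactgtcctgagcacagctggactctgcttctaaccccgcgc
Pdpn: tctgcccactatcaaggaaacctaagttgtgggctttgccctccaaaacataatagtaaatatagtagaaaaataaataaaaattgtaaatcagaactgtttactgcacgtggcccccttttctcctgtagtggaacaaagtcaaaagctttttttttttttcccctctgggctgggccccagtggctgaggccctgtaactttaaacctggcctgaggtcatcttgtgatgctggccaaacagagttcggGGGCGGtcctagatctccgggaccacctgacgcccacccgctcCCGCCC
Mocs1: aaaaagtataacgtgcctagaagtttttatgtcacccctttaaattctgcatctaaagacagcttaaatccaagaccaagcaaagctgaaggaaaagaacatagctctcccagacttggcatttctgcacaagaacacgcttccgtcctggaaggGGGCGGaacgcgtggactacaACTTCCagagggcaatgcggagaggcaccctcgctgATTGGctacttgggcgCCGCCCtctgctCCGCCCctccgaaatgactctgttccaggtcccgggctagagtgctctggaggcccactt
The Enpp4 promoter holds 2 NF-kB matches that lie next to each other without overlap, from -113 on the gene's strand and from -103 on the other, besides 2 CCAAT boxes and 1 GC box. Among the promoters of 27025 genes, 1 for each gene, 8.18% hold an NF-kB match. Pik3ap1 holds 1 ETS match, at -114, and Mocs1 1 ETS match, at -74, beside 1 CCAAT and 3 GC boxes. An ETS match is found in 24.1% of promoters, a CCAAT box in 37.9% and a GC box in 35.9%. The Pdpn promoter holds 2 GC boxes, at 2 and 45 after the start. None of the 4 windows holds the AP-1 or TATA letters, which 7.93% and 14.2% of promoters hold. Among the other 6 genes, an ETS match is found for Pot1b, Adgre4 and Npy. These matches describe letters and are not evidence of binding.

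Position was not used to pick the genes beyond leaving out chromosome 18. Enpp4, Mocs1, Pot1b and Adgre4 lie on chromosome 17, and the others on chromosomes 19 (Pik3ap1), 4 (Pdpn), 16 (Bdh1), 5 (Galnt9), 6 (Npy) and 7 (Zfp30). In the RefSeq order of GRCm38.p6, used here only for which genes neighbour each other, they are the 521st, 611th, 629th and 630th of 839 measured genes of chromosome 17, with Pot1b directly before Adgre4. On chromosome 17, 12 genes (1.43%) passed at rest, the 4 included, against 0.500% of all genes. The count was 10 of 463 (2.16%) on chromosome 18, Map3k8 included, and 16 of 1131 (1.41%) on chromosome 5. The calls on chromosome 17 besides the 4 were Nme4 (221st), Gtf2h4 (460th), H2-T24 (476th), 9130008F23Rik (505th), Klc4 (562nd), Treml1 (603rd), Epb41l3 (719th) and 4933433H22Rik (794th). Some of these thus lie among or close to the 4 genes. With LPS the share on chromosome 17 was 13.8%, close to the 13.7% of all genes. At rest Pot1b was lower and its neighbour Adgre4 higher in Tpl2-deficient cells. The part of position in the genotype differences was not tested.

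**Figure D5:**
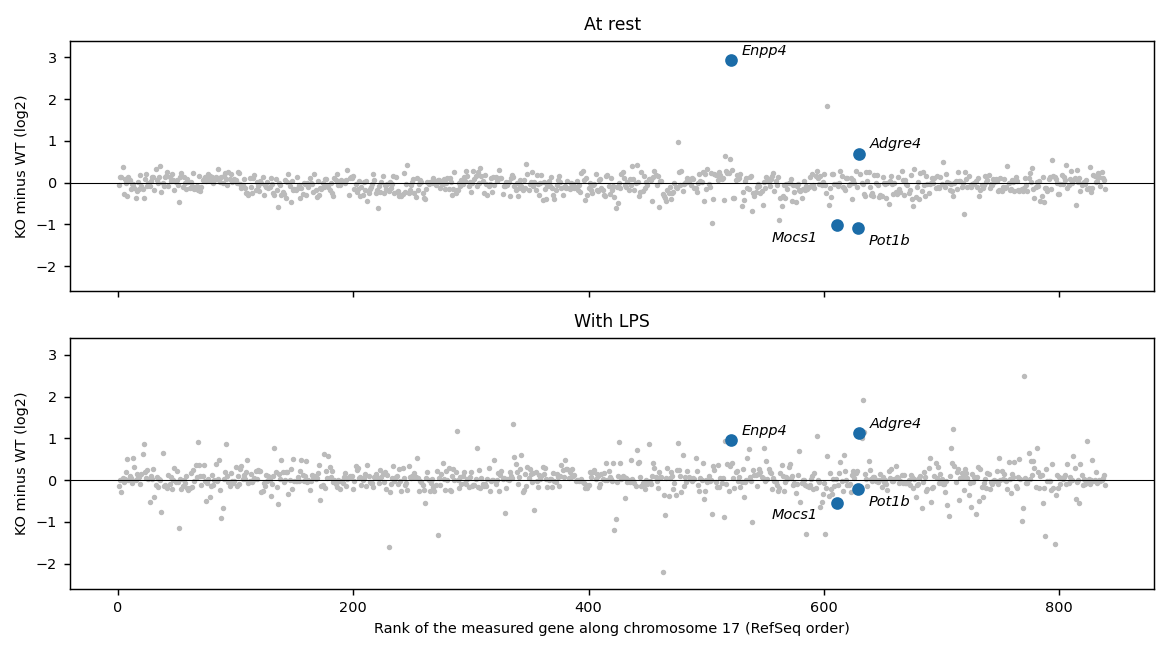
Genotype difference (Tpl2-deficient minus wild type, log2) of the 839 measured genes of chromosome 17 in RefSeq order, at rest (top) and with LPS (bottom); the 4 genes described are in blue. At rest Enpp4 stands at 2.94 and the spread of most genes is narrow, and with LPS it is wider.

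The 3 measured genes on each side of each gene gave 54 neighbours. At rest 1 of them passed, where 0.500% of all genes did, and the median size of their difference was 0.13. The 1 was Gm38983, a predicted gene near Zfp30, which was higher by 0.81 ± 0.12 at rest and by 0.66 ± 0.12 with LPS and lay under the array medians in every group. Enpp5, the gene next to Enpp4 and of the same enzyme family, differed by 0.57 ± 0.12 at rest and 0.34 ± 0.12 with LPS and did not pass. With LPS 13 of the 54 neighbours (24.1%) passed, against 13.7% of all genes. Beyond Adgre4 lie the zinc finger genes Zfp119a, Zfp959 and Zfp119b, which were higher in Tpl2-deficient cells with LPS by 1.20 ± 0.10, 1.00 ± 0.11 and 1.91 ± 0.17, and at rest by 0.21 ± 0.10, 0.00 ± 0.11 and -0.04 ± 0.17, where they did not pass. Zfp119a and Zfp119b lay under the array medians in LPS-treated wild-type cells. Next to Npy, Mpp6 and Gsdme were lower with LPS by 0.85 and 0.78 and Osbpl3 higher by 0.97 ± 0.12.

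Other genes of the same families and pathways, taken from 10 lists with 111 measured genes that are not among the 10, did not pass at rest. In limma 0 of 111 passed and 18 had an unadjusted p under 0.05, against 2445 of 18193 genes. With LPS 14 passed as higher and 11 as lower, 22.5% of the 111 against 13.7% of all genes. In the list around Pik3ap1, of PI3 kinase subunits and other genes, 3 of 16 genes were higher and 6 lower with LPS. The list median with LPS was -0.20 against 0.02 over all genes. The catalytic subunits Pik3cg (-2.06 ± 0.14), Pik3cb (-1.17 ± 0.11) and Pik3cd (-0.83 ± 0.12) were lower and the regulatory subunit Pik3r3 (1.47 ± 0.18) was higher, Pik3r3 lying under the array medians in wild-type cells. Around Galnt9, 3 of 20 glycosylation genes were higher and 1 lower, among them Galnt10 (1.61 ± 0.13), another enzyme that starts O-glycans, and Gcnt1 (1.54 ± 0.11), which branches them and lay under the array medians in LPS-treated wild-type cells. Around Bdh1, the monocarboxylate transporters Slc16a1 (-1.21 ± 0.12) and Slc16a3 (-0.68 ± 0.14) were lower and 1 of 7 genes was higher. Of 9 molybdenum cofactor genes 3 were higher and 0 lower, Mocos (0.51 ± 0.12), Suox (0.46 ± 0.11) and Mtarc2 (0.45 ± 0.10). Mocs1 was lower by the probe set used only, and its other probe set differed by 0.34 ± 0.14 and did not pass. Of 11 telomere genes 1 was higher, Terf1 (0.54 ± 0.12), and of 12 zinc finger genes of the Zfp30 cluster 3 were higher and 0 lower. Pot1a, the paralogue of Pot1b, differed by 0.08 ± 0.13 at rest. Of 8 podoplanin partners and of 17 adhesion receptors 1 each was lower, Lgals8 (-0.50 ± 0.14) and Adgrl2 (-0.80 ± 0.13), and 0 of 3 Enpp genes and 0 of 8 genes of the neuropeptide Y system passed.

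The genes whose levels followed those of the 10 most closely over the 8 arrays were listed by Pearson's r, as a description of arrays that share their LPS and genotype groups. Pdpn was followed by the proteasome subunit gene Psmd12 (r = 0.996) and Syne3 (r = 0.987). Bdh1 was followed by Alkbh6 (r = 0.991) and Nme4 (r = 0.990), which were lower by 0.68 and 0.60 in resting Tpl2-deficient cells. Zfp30 was followed by Treml1 (r = 0.952), a receptor gene of chromosome 17 that was higher by 1.83 ± 0.18 at rest, and Npy by Leprotl1 (r = 0.975). For Adgre4 the closest was Bcl2l11 (r = 0.937), which encodes the death-promoting protein BIM. The closest to Enpp4 was a gene known only by a clone name, with r = 0.992 and a difference of 0.20 at rest, so a high r does not mean a change of like size. That gene lay between 3.84 and 4.22 on the 8 arrays, under the array medians, so no expression was shown for it.

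Persistence was also set beside that of the other genes called at rest, with no test. Of the 10 genes 6 (60.0%) passed with LPS in the same direction, against 7 of 10 (70.0%) on chromosome 18 and 34 of the remaining 71 (47.9%). The opposite direction was called for 0 of the 10, for 1 on chromosome 18 and for 3 of the 71. The median size of the difference with LPS was 0.75 for the 10 genes, 0.99 on chromosome 18 and 0.47 for the 71. At rest the median size was 1.29, 0.91 and 0.76 in the same order, so the 10 genes, picked at rest, started from larger differences. The part of that larger start in these shares and sizes was not tested.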

How the data were processed

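The authors deposited log2 intensities of 45101 probe sets on 8 arrays. Per the submitters' processing notes, GCOS and RMA were used, without versions. The chip definition file and genome build are not given in the sources used here. Probe sets were paired with genes through the array's annotation table: 34945 list exactly 1 symbol and were used. A gene's value is its probe set with the highest 8-array mean, which gave 18193 genes. No filter on low values was applied. A 4-group model was fitted to the 8 arrays by lmFit and moderated by eBayes (limma 3.58.1, R 4.3.3), which left 4 residual and 6.87 prior degrees of freedom; tests were two-sided and adjusted by Benjamini-Hochberg over all genes. The method was tested on simulated data for the genotype comparison with LPS only, and not for the comparison at rest. The 10 genes and the gene lists were chosen with earlier results of these data known. The genes named besides the 10 were drawn from list members past the threshold, up to 4 a list, and the 2 closest genes by correlation. The 3 nearest measured genes on each side and Map3k8 were further sources. Not all of these genes are named. Adgre1, Pot1a and the other genes of chromosome 17 called at rest were added after their values were seen. The alternatives tried took a gene as the average of its probe sets, each other probe set, leaving out _x_at and _s_at probe sets, repeated quantile normalization, centring on medians or spike-ins, only genes above the median level, a variance trend, a robust prior, weighted arrays, a fit of only the 4 arrays in question, leaving out chromosome 18, a replicate block, a 2-fold minimum and leaving out each array. Promoters are from RefSeq; all 10 genes matched.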

Additional observations from a re-analysis of the deposited data

Results flagged for a closer look

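For 5 of the 10 genes the LPS response differed between the genotypes by the limma test of that difference, where 8.59% of all genes passed. The resting arrays that led to the choice of the genes are part of this difference, so the values are a description. For Enpp4 the LPS response was 2.72 in Tpl2-deficient cells, against 4.70 in wild-type cells, a difference of -1.98 ± 0.16. That of Zfp30 was -1.59 and -0.45, a difference of -1.13 ± 0.17. Bdh1 changed by -0.86 in Tpl2-deficient and -2.17 in wild-type cells, a difference of 1.31 ± 0.17. Galnt9 changed by 0.24 and -1.10, a difference of 1.34 ± 0.17, and Pot1b by 0.17 and -0.70, a difference of 0.87 ± 0.15. Group means under the array medians enter the values of Bdh1, Galnt9 and Zfp30, and a part of that in the differences was not tested. All these values come from the probe sets used. The second Enpp4 probe set rose by 3.55 in wild-type and 2.67 in Tpl2-deficient cells, closer together than above. For Zfp30 the second probe set changed by -0.345 and -0.343 in that order, nearly alike. For Bdh1 it changed by -0.48 and -0.03. The second Zfp30 and Bdh1 probe sets lay under the array medians in every group. The genotype difference in response was not tested for second probe sets.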

How the results depend on the processing

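Of the values of single genes under the alternatives, 796 in all, 755 kept their direction and side of the threshold, 23 lost a call, 2 gained one and 16 reversed. Most lost calls, 19, were for genotype at rest, with 2 for genotype with LPS and 2 for LPS in wild-type cells. At rest 8 of the 10 genes passed as the mean of probe sets, and 9 with only the 4 arrays compared. The reversals of called values belong to Pik3ap1, whose mean over probe sets with LPS was -0.24 and whose other probe set gave -0.84 at rest and -1.61 with LPS, and to Mocs1, whose other probe set, also the one left without _x_at and _s_at probe sets, gave 0.019 at rest and 0.34 with LPS; the cause was not tested. The other 9 were of values that did not pass as reported. Bdh1 with LPS was 0.0048 as the mean of probe sets, 0.018 centred on spike-ins, 0.023 by its other probe set, and ranged from -0.16 to 0.13 when an array was left out. Galnt9 with LPS ranged from -0.11 to 0.11 when an array was left out. For LPS, Adgre4 in wild-type cells was 0.053 after repeated quantile normalization, and in Tpl2-deficient cells Pot1b was -0.033 centred on spike-ins and Npy 0.0085 without LPS-treated replicate 2. For genotype with LPS, Enpp4, Pdpn, Adgre4 and Npy kept their call under each alternative except a 2-fold minimum, which Enpp4 missed at 1.94-fold, and Bdh1, Galnt9, Pot1b and Zfp30 passed under none. The 2 calls gained were of Npy for LPS in Tpl2-deficient cells, centred on spike-ins (-0.49) or without LPS-treated Tpl2-deficient replicate 1 (-0.58). Genes past the threshold at rest numbered 140 with a mean-variance trend, 531 with array weights, 48 with only the 4 arrays compared and 26 at 2-fold or more. The genotype comparison with LPS gave 1580 with array weights and 462 at 2-fold or more. LPS changed 2631 genes at least 2-fold in Tpl2-deficient and 3110 in wild-type cells. Of the 10 genes, 6 passed at rest and 4 for LPS in wild-type cells among genes above the median level, since fewer are tested there, and 5 passed for LPS in wild-type cells at 2-fold or more. Leaving out an array gave 23 to 111 genes at rest and 1356 to 3240 with LPS for genotype, and 6011 to 8400 for LPS in Tpl2-deficient and 7544 to 10680 in wild-type cells. For the 10 genes the ranges were 8 to 9 at rest and 5 to 6 with LPS for genotype, and 6 to 7 and 7 to 8 for LPS in the same order. Replicate numbers did not pair the arrays (correlations of deviations from -0.14 to 0.09). The replicate block gave 85 genes at rest and 2388 with LPS for genotype, and 9 and 6 of the 10 genes. A crossed pairing, added after seeing the data, gave 83 and 2453. The arrays have no depth, and signals under the array medians limit what can be said of low genes.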
